A study of Mus musculus with 46 samples.

Results

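The 9 genes described here belong to the type 1 conventional dendritic cell (cDC1), the cross-presenting dendritic cell, and to the signals that recruit and sustain it. They were taken by gene name from a table of 48795 mouse genes, and all 9 were found. Cross-presentation is the display on MHC class I of antigen taken up from other cells, such as dying tumor cells, and it lets a dendritic cell prime CD8 T cells. Development of cDC1 depends on the transcription factors IRF8 and BATF3, and growth depends on the receptor FLT3 and its ligand FLT3L. The chemokine XCL1, released by NK cells and activated CD8 T cells, draws cDC1 through its receptor XCR1.

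The samples were MC-38 cells, a mouse colon adenocarcinoma line, and tumors grown from them under the skin of female C57BL/6NTac mice or of littermates from a PD-1cKO colony, all 8 to 10 weeks of age. The 46 RNA samples fell into 8 groups: cultured cells (n = 3), untreated baseline tumors (n = 3), tumors treated with isotype control or with PD-1 Ab, harvested at day 11 after implant (n = 5 each) or at day 15 (n = 5 each), and tumors of WT and PD-1cKO mice that had both been given tamoxifen (n = 10 each). The PD-1 Ab was muDX400 at 5 mg/kg, 1 dose before the day 11 tumors and 2 doses before the day 15 tumors, a dose every 4 days. PD-1cKO mice carried a floxed Pdcd1 gene and Rosa26-creERT2, a Cre recombinase made in all cell types and switched on by tamoxifen. Both tamoxifen arms received 40 mg/kg on 5 days. The sample labels put these tumors at 28 days, while the methods give day 22. Every value is FPKM, a read level scaled to library size and transcript length, from whole tissue, and in the tumors fewer cells of a type and less RNA per cell cannot be told apart.

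In mouse build GRCm38 the protein-coding members lie as follows. The transcription factor genes are Batf3 (chr1:191097847-191108945, plus strand), Irf8 (chr8:120736358-120756694, plus strand) and Zbtb46 (chr2:181387762-181459426, minus strand). The surface receptor genes are Clec9a (chr6:129408862-129424763, plus strand), Xcr1 (chr9:123852315-123862029, minus strand), Cd24a (chr10:43578284-43584265, plus strand) and Flt3 (chr5:147330741-147400489, minus strand). The secreted ligands are encoded by Flt3l (chr7:45129788-45136432, minus strand) and Xcl1 (chr1:164931644-164935527, minus strand). Irf8 lies inside a read-through gene model, Gm20388, with which it shares no exon bases. Xcl1 shares 98 exon bases with Gm20743 on the opposite strand, whose FPKM was at most 0.167 in any sample, and the libraries were stranded.

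Promoters of the 3 member genes called higher after PD-1 Ab at day 15 (below) are shown first, because these 3 share that call. Each is the 250 bases before a RefSeq start site in mouse build GRCm38.p6, written 5′ to 3′ on the strand of the gene. The starts used here coincided with the gene starts of the GENCODE annotation of the same build. RefSeq lists another start for Irf8, at position 120738639, which did not coincide with a GENCODE gene start and whose window, not shown, held no match. Capitals mark a match to 1 of 5 short motifs searched on both strands: the interferon response core (GAAA, any 2 bases, GAAA), the ETS-IRF composite (GGAA, any 2 bases, GAAA), the AP-1 site TGANTCA, the STAT site TTCNNNGAA and the PU.1-type ETS core GGAAGT.
Irf8, chr8:120736108-120736357, plus strand: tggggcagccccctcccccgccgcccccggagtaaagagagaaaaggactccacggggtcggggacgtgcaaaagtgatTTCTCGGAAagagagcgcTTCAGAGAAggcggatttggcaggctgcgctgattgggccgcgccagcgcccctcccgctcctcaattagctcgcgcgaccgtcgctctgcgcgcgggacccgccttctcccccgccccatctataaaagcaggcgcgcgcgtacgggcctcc
Clec9a, chr6:129408612-129408861, plus strand: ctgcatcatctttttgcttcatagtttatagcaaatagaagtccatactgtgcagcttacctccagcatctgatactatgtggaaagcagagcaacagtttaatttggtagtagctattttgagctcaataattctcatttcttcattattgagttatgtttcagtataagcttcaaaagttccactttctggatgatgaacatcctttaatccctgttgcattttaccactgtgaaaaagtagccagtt
Xcr1, chr9:123862030-123862279, minus strand: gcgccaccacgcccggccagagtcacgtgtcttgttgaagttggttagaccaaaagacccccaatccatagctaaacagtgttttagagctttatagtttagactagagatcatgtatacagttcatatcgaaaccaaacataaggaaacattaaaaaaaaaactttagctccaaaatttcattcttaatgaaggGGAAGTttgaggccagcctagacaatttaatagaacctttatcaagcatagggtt
The Irf8 window held 2 TTCNNNGAA matches, 171 and 153 bases before the start, a motif found in 7.02% of the 32851 mouse promoter windows of this length. The Xcr1 window held 1 GGAAGT match, 55 bases before the start, a motif found in 19.7% of windows. None of the 5 motifs was found in the Clec9a window. Their base composition differed as well, with 67.2% G or C for Irf8, 35.6% for Clec9a and 38.8% for Xcr1. Among the members not shown, the window of Flt3l held the interferon response core as TTTCACTTTC, read on the other strand, 10 bases before the start, a motif present in 2.98% of windows. GGAAGT also occurred in the windows of Batf3, Flt3 and Xcl1, TTCNNNGAA in that of Batf3, where it overlapped the GGAAGT match, and TGANTCA, present in 6.75% of windows, in that of Zbtb46. The RefSeq starts of Batf3, Xcl1 and Zbtb46 differed from the GENCODE gene starts. These matches describe letters only.

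Some libraries stood apart. Isotype control replicate 1 of day 11 had 54.6% of its FPKM in mitochondrial genes against 2.89% to 7.65% in the other cultured, baseline and antibody-study samples, and it had the lowest value of its group for every member but Clec9a. In the tamoxifen tumors 30.2% to 66.5% of FPKM lay in short noncoding RNA genes, against at most 0.0746% elsewhere, so that levels are not compared between the tamoxifen tumors and the other groups by any test. The sample identifiers of the tamoxifen tumors fell into 3 runs of numbers: 7 PD-1cKO tumors made up the first, 1 PD-1cKO and 9 WT tumors the second, and 2 PD-1cKO tumors and 1 WT tumor the third. The cultured, baseline, day 11 and day 15 samples had separate ranges of numbers too, so that group and range cannot be told apart between them. Within day 11, isotype control replicates 1, 2 and 3 had lower numbers than every other tumor of that day. The labels name no batch. Pdcd1 itself was no check on the labels: its FPKM, which covers the whole gene and not the deleted exons alone, had a median of 8.29 in the PD-1cKO tumors and 3.01 in the WT tumors. The cultured cells showed little epithelial RNA, with Epcam, Cdh1, Krt8, Krt18 and Krt20 summing to between 0.591 and 0.781 FPKM.

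**Figure D1:**
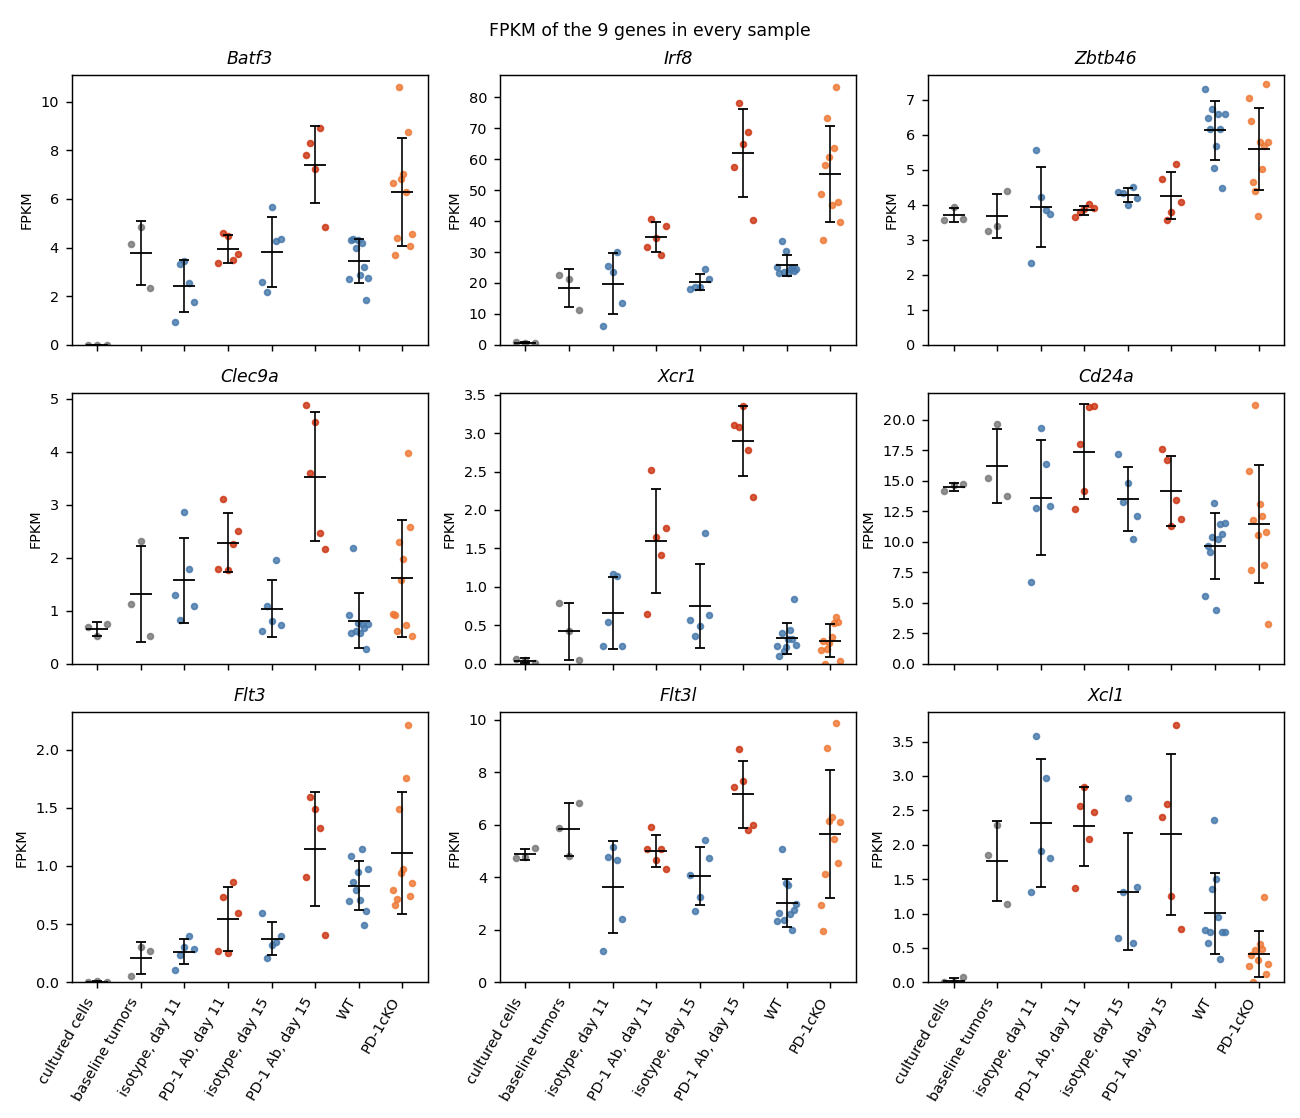
FPKM (y axis, linear, a separate scale for each gene) of the 9 genes in the 8 groups (x axis); each point is 1 sample, the bar is the mean and the whiskers are the SD. Irf8, Batf3, Clec9a, Xcr1, Flt3 and Flt3l had a higher mean in the PD-1 Ab-treated tumors of day 15 than in the other antibody-study, baseline and cultured groups, and Zbtb46 and Cd24a were present in cultured cells (means 3.70 and 14.5 FPKM). Levels in the WT and PD-1cKO groups are not comparable with the rest, as stated above for short noncoding RNA.

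Comparison of tumors with cultured cells asked which of these genes the tumor cells themselves carry. Batf3, Xcr1 and Xcl1 were at or near 0 in culture and Irf8 was below 1 FPKM there, and all 4 were higher in the tumors. Zbtb46, Cd24a and Flt3l were at several FPKM or more in the cultured cells, and Clec9a was below 1 FPKM, at about the level of Irf8. Batf3 was listed at 0 in all 3 cultures and lay between 2.17 and 5.67 FPKM in the isotype control tumors of day 15. Irf8 was 0.749, 0.652 and 0.706 FPKM in culture and 18.1 to 24.4 FPKM in those tumors. Xcl1 was listed at 0 in 2 cultures and at 0.0717 FPKM in the third, against 0.572 to 2.69 FPKM in the tumors. Xcr1 was at most 0.0568 FPKM in culture and 0.365 to 1.70 FPKM in the tumors. For these 4 genes the groups did not overlap.

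All 4 passed the test in limma on log2(FPKM + 0.1), which here requires both an adjusted p below 0.01 and a 2-fold difference: Irf8 by 4.66 (SE 0.13, adjusted p = 4.9e-09), Xcl1 by 3.37 (SE 0.48, adjusted p = 0.000352) and Xcr1 by 2.45 (SE 0.44, adjusted p = 0.00141), and Batf3 with an adjusted p of 1.1e-06, for which no fold is given against cultures at 0. Batf3, Xcr1 and Xcl1 passed the filter on low values through the tumor group alone, so that they had to differ to be tested. In this comparison 14.2% of all genes tested were called higher and 26.3% had groups that did not overlap in that direction. With 1 FPKM added, the Xcr1 difference was 0.71 on the log2 scale (adjusted p = 0.0148) and was no longer called. Flt3, the cytokine receptor, lay below the filter of a mean of 0.5 FPKM in either group, with 0 to 0.0129 FPKM in culture and 0.211 to 0.594 FPKM in the tumors (exact permutation test, two-sided, p = 0.0357, the smallest that 5 against 3 samples can give).

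The other members were shared between tumor and culture. Zbtb46, a transcription factor that marks conventional dendritic cells, was 3.56 to 3.93 FPKM in culture and 3.99 to 4.50 FPKM in the tumors (log2 difference 0.21, SE 0.11, adjusted p = 0.128). Every tumor thus lay above every culture for Zbtb46, but by little and without a call. Cd24a, which encodes a surface protein carried by cDC1 and by many epithelial and blood cells, was 14.1 to 14.8 FPKM in culture and 10.2 to 17.2 FPKM in the tumors (log2 difference -0.12, SE 0.15, adjusted p = 0.519). Flt3l had a mean of 4.87 ± 0.200 FPKM in culture (SD, n = 3) and 4.05 ± 1.10 FPKM in the tumors (SD, n = 5). Clec9a, a receptor for actin exposed by dead cells, was 0.514 to 0.752 FPKM in culture, where Clec1b, the neighbouring gene with which it shares exon bases, was at most 0.0863 FPKM. In the tumors Clec9a was 0.609 to 1.96 FPKM (log2 difference 0.50, SE 0.35, limma adjusted p = 0.245). CD8 T cell markers were at 0 in the cultures for 5 of 6 genes and the sixth, Cd8a, was at most 0.0121 FPKM.

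The baseline tumors gave a like picture against culture. Batf3 was 4.16, 4.86 and 2.32 FPKM, Irf8 22.6, 21.3 and 11.4 FPKM, and Xcl1 1.85, 2.29 and 1.14 FPKM, all above every culture and called (limma adjusted p = 1.5e-05, 7.1e-06 and 0.000152), Batf3 and Xcl1 again passing the filter through the tumors alone, beside 12.1% of all genes tested that were called higher and 31.3% above every culture. Xcr1 (0.783, 0.426 and 0.0447 FPKM) and Flt3 (0.0530, 0.300 and 0.272 FPKM) lay below the filter, and 3 against 3 samples cannot give an exact permutation p below 0.1. Between the isotype control tumors of day 15 and the baseline tumors none of the 8 members tested was called (limma), beside 0.595% of all genes. The member with the smallest unadjusted p there was Flt3l, with 5.86, 4.80 and 6.82 FPKM at baseline and 2.71 to 5.42 FPKM at day 15 (log2 difference -0.54, 95% interval -1.07 to -0.02, adjusted p = 0.268).

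PD-1 Ab treatment was compared with isotype control at each day. At day 15 Irf8, Clec9a and Xcr1 rose by about 3 to 4 times, Flt3l, Batf3 and Flt3 were higher without meeting the threshold, and the differences of Xcl1, Cd24a and Zbtb46 lay within the spread between tumors. At day 11 no member was called, and the 9 log2 differences, all above 0, were mostly smaller.

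Irf8, the transcription factor that sets cDC1 fate and is also made by monocytes, B cells and other leukocytes, was 18.1, 18.8, 18.7, 24.4 and 21.4 FPKM in the isotype control tumors of day 15 and 57.5, 78.1, 65.0, 68.9 and 40.3 FPKM in the PD-1 Ab-treated tumors. Every treated tumor lay above every control, the lowest of the treated being replicate 5. The change was 1.58 on the log2 scale (SE 0.16, limma adjusted p = 0.000806), or 2.99-fold.

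Xcr1, the XCL1 receptor and the most cDC1-restricted gene of the set, was 0.563, 0.365, 0.491, 1.70 and 0.630 FPKM in the controls and 3.10, 3.08, 3.35, 2.78 and 2.17 FPKM after PD-1 Ab. The groups did not overlap, although control replicate 4 stood above the other controls. The change was 1.98 (SE 0.33, limma adjusted p = 0.00235), or 3.95-fold on this scale, which understates the change of low genes.

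Clec9a was 0.609, 1.08, 0.806, 1.96 and 0.730 FPKM in the controls and 4.87, 3.60, 4.57, 2.47 and 2.16 FPKM after PD-1 Ab, again with no overlap. The change was 1.72 (SE 0.32, limma adjusted p = 0.00444), or 3.28-fold. This call sat close to the threshold: leaving out isotype control replicate 1, 3 or 5 or PD-1 Ab replicate 1, 2 or 3 raised the adjusted p to between 0.0103 and 0.0169, and testing every gene without the filter raised it to 0.0140. In those fits the change itself stayed between 1.57 and 1.72.

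In all 3 of 9 members were called higher at day 15, beside 5.03% of the 15062 genes tested. The median log2 difference was 1.00 over the 9 members and -0.04 over all genes. Members with no overlap between the groups numbered 4, the 3 above and Flt3l, where 9.23% of all genes tested had no overlap in that direction. All 9 passed the filter, Flt3 through the treated group alone.

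The growth signal and its receptor lay below the threshold. Flt3l was 4.11, 2.71, 3.26, 5.42 and 4.74 FPKM in the controls and 7.42, 8.90, 7.68, 5.81 and 6.00 FPKM after PD-1 Ab, a change of 0.83 (SE 0.20, limma adjusted p = 0.0129) with every treated tumor above every control. Part of this value is uncertain, because 18.5% of the 50-base stretches of Flt3l also occur in Gm45713, a gene model on the same strand. Flt3 was 0.594, 0.211, 0.320, 0.348 and 0.395 FPKM in the controls and 0.905, 1.59, 1.49, 1.32 and 0.410 FPKM after PD-1 Ab, a change of 1.32 (SE 0.37, limma adjusted p = 0.0248), with treated replicate 5 inside the control range.

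Batf3, the partner of IRF8 in cDC1 development, was 2.58, 2.17, 5.67, 4.29 and 4.36 FPKM in the controls and 7.82, 8.28, 7.23, 8.92 and 4.83 FPKM after PD-1 Ab. The lowest treated tumor, again replicate 5, fell below the highest control, and the change was 1.00 (SE 0.26, limma adjusted p = 0.0194). PD-1 Ab replicate 5 was the treated tumor with the lowest Irf8, Xcr1, Clec9a, Batf3, Flt3 and Xcl1. Without it, 5 members were called rather than 3, as Batf3 (adjusted p = 0.00666) and Flt3 (adjusted p = 0.00202) were added. Flt3 passed the filter through the treated group alone. The calls over all genes rose in that fit too, from 799 to 1534.

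Xcl1 was 0.639, 1.31, 2.69, 0.572 and 1.38 FPKM in the controls and 2.40, 2.59, 1.26, 3.74 and 0.769 FPKM after PD-1 Ab, so that the groups overlapped widely. The difference was 0.68 (95% interval -0.34 to 1.70, limma adjusted p = 0.299). Over the same tumors Cd8a, which encodes the CD8 alpha chain of one of the cell types that make XCL1, rose from 3.09 ± 1.04 FPKM to 27.9 ± 11.6 FPKM (SD, n = 5 each; log2 change 3.06, limma adjusted p = 0.000837). Within each tumor the ratio of Xcl1 to Cd8a, both in FPKM and so per length, ran from 0.130 to 0.843 with a median of 0.375 in the controls, and from 0.0368 to 0.136 with a median of 0.0744 after PD-1 Ab. The ratio of Xcr1 to Clec9a, by contrast, had a median of 0.863 in the controls and 0.856 after PD-1 Ab. Clec9a was also read in the cultured cells, and the part of tumor cells in this ratio was not tested. Ratios are given as a description, with no test, and a rise of Cd8a alone lowers the ratio of Xcl1 to Cd8a.

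Cd24a and Zbtb46, which the cultured cells carry as well, differed little. Cd24a had a mean of 13.5 ± 2.63 FPKM in the controls and 14.2 ± 2.86 FPKM after PD-1 Ab (log2 difference 0.07, 95% interval -0.30 to 0.43). Zbtb46 had means of 4.28 ± 0.195 and 4.27 ± 0.672 FPKM (SD, n = 5 each; log2 difference -0.02, 95% interval -0.31 to 0.27).

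**Figure D2:**
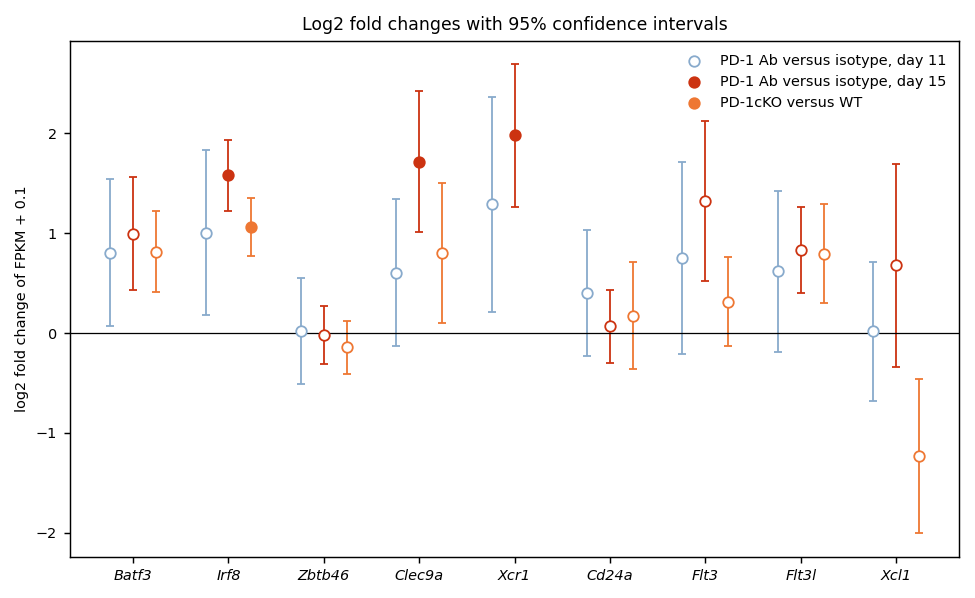
Log2 fold change of FPKM + 0.1 (y axis) for each gene (x axis) in the day 11 and day 15 antibody comparisons and in PD-1cKO against WT, with 95% confidence intervals; filled points were called and open points were not. At day 15 Irf8, Clec9a and Xcr1 were called (1.58, 1.72 and 1.98), in PD-1cKO Irf8 was called (1.06), and Xcr1 has no PD-1cKO point because it lay below the filter there.

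At day 11 Xcr1 was 0.228, 0.536, 1.17, 1.14 and 0.235 FPKM in the isotype control tumors and 0.642, 2.51, 1.64, 1.42 and 1.77 FPKM after PD-1 Ab. Irf8 was 6.11, 25.6, 23.7, 30.1 and 13.5 FPKM in the controls and 31.5, 40.8, 34.5, 29.0 and 38.4 FPKM after PD-1 Ab. For both genes 4 of 5 treated tumors lay above every control. The differences were 1.29 for Xcr1 (SE 0.49), 1.00 for Irf8 (SE 0.38) and 0.81 for Batf3 (SE 0.34), with limma adjusted p values of 0.690, 0.674 and 0.740 and unadjusted p values of 0.0229, 0.0215 and 0.0343.

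No gene of the 14556 tested was called by limma at day 11, and 895 (6.15%) had an unadjusted p under 0.05. No member was free of overlap between the groups, where 3.59% of genes lay higher with none. The median log2 difference was 0.62 over the 9 members and 0.26 over all genes, with Flt3 again tested through the treated group alone. Without the mostly mitochondrial control, replicate 1, the differences were 1.05 for Xcr1, 0.63 for Irf8 and 0.52 for Batf3 and no member was called (adjusted p = 0.275, 0.151 and 0.219). Xcl1 (log2 difference 0.02, adjusted p = 0.983) and Zbtb46 (0.02, adjusted p = 0.972) turned to -0.23 each when samples were scaled by the median of ratios, which brought the median of all genes from 0.26 to 0.01.

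The effect at day 15 was set against that at day 11 in 1 fit of the 4 groups. No member and no other gene was called by limma, with 1182 of 15289 genes (7.73%) at an unadjusted p under 0.05. Clec9a had the largest excess at day 15, 1.11 on the log2 scale (95% interval 0.12 to 2.10, adjusted p = 0.623), and Irf8 had 0.58 (95% interval -0.32 to 1.48, adjusted p = 0.637).

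Other genes of the same cells and pathway were read from lists. Of 12 other cDC1 genes, 6 were called higher at day 15 and none lower, with a median log2 difference of 0.99 against -0.04 over all genes. Tlr11, a receptor for microbial profilin, had 0.205 ± 0.0933 FPKM in the controls and 1.66 ± 0.452 FPKM after PD-1 Ab (log2 change 2.54, adjusted p = 0.000885). Gpr33, an orphan receptor gene, had 0.130 ± 0.128 and 0.881 ± 0.165 FPKM (log2 change 2.26, adjusted p = 0.00365). Tlr11 and Gpr33 passed the filter through the treated group alone, so that they had to be higher there to be tested. Nfil3, a transcription factor needed for cDC1 development, had the lowest value in the list, with 41.1 ± 6.17 and 26.9 ± 4.59 FPKM (SD, n = 5 each; log2 difference -0.61, adjusted p = 0.00934), under the 2-fold limit.

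The cDC2 list was of similar size in its shift. Of its 9 genes 8 were tested and 4 called higher, with a median of 1.03; Irf4, a transcription factor of cDC2 and of activated lymphocytes, went from 0.319 ± 0.157 to 2.26 ± 1.04 FPKM (log2 change 2.38, adjusted p = 0.00320). Clec10a, a lectin of cDC2 and macrophages, went from 4.38 ± 1.32 to 16.9 ± 7.61 FPKM (log2 change 1.79, adjusted p = 0.00732). Plasmacytoid dendritic cell genes had 1 of 7 tested called higher, Pacsin1, and a median of -0.04. Of 8 mature dendritic cell genes 2 were called higher, Il12b and Cd40. Among the genes named in this paragraph, Irf4, Pacsin1 and Il12b passed the filter through the treated group alone. Il12b, the shared subunit of interleukin-12 and interleukin-23, went from 0.249 ± 0.0482 to 1.56 ± 0.516 FPKM (SD, n = 5 each; log2 change 2.20, adjusted p = 0.000885), while Fscn1, an actin-bundling protein of migrating dendritic cells and many tumor cells, was the lowest of the list (log2 difference -0.44, adjusted p = 0.0288).

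Among 10 genes of chemoattractants and growth signals for cDC1, 7 were called higher at day 15 and the median was 1.54. Of those called, Ptger2 passed the filter through the treated group alone. Ccl5, a chemokine of T and NK cells, went from 40.9 ± 12.9 to 229 ± 79.9 FPKM (log2 change 2.45, adjusted p = 0.000967), and Ccl3 from 4.17 ± 1.93 to 21.4 ± 8.12 FPKM (log2 change 2.33, adjusted p = 0.00113). Csf2, which encodes GM-CSF, was the lowest (0.820 ± 0.245 and 0.479 ± 0.126 FPKM, log2 difference -0.64, adjusted p = 0.121). In the cross-presentation machinery 3 of 10 genes were called higher, with a median of 0.77. These were Cybb, the NADPH oxidase subunit that limits acidification of the phagosome (log2 change 1.44, adjusted p = 0.00106), Rac2 (1.43, adjusted p = 0.00252) and Syk, the kinase downstream of CLEC9A (1.36, adjusted p = 0.00237), and Sec22b was the lowest at -0.25 (adjusted p = 0.0978).

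Markers of other cell types moved over the same tumors. All 6 CD8 T cell markers were called higher, and their sum ran from 6.64 to 16.7 FPKM in the controls and from 34.6 to 149 FPKM after PD-1 Ab. Gzmk (4.30) and Cd8b1 (3.34) had the highest log2 changes and Cd3d (2.47) the lowest. Gzmk passed the filter through the treated group alone. Of 7 macrophage and monocyte markers 5 were called higher (sum 389 to 571 FPKM, then 705 to 1481 FPKM), and of 7 NK cell markers tested 3 (sum 6.03 to 12.5 FPKM, then 23.7 to 61.1 FPKM). The macrophage list ran from Ly6c2 (1.98) and Adgre1 (1.56) to Ccr2 (0.72, adjusted p = 0.0746), and the NK list from Prf1 (3.55) and Klre1 (2.18) to Eomes (0.14, adjusted p = 0.706). B cell markers, of which 4 of 5 were tested, had no call, and Irf8 is also a B cell gene; their sum was 2.002 to 5.78 FPKM and then 1.36 to 18.9 FPKM. Of 5 endothelial markers 1 was called higher (sum 18.1 to 23.9 FPKM, then 24.0 to 81.5 FPKM), while of 3 neutrophil markers tested 1, S100a8, was called lower (sum 1.77 to 13.6 FPKM, then 1.71 to 11.2 FPKM), and Ly6g was at 0 in every control. The list of epithelial and tumor cell markers had no call among 4 tested (sum 2.07 to 18.8 FPKM, then 2.55 to 34.2 FPKM). Its sum was only 0.591 to 0.781 FPKM in the cultured tumor cells, below every tumor. The list is therefore not read as a measure of tumor cells, and tumor cell content was not tested. No marker of the CD8 T, NK, macrophage or B cell lists was at 0 throughout either group, and the part of these cells in the values of Irf8, Batf3, Flt3l and the other members was not tested.

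**Figure D3:**
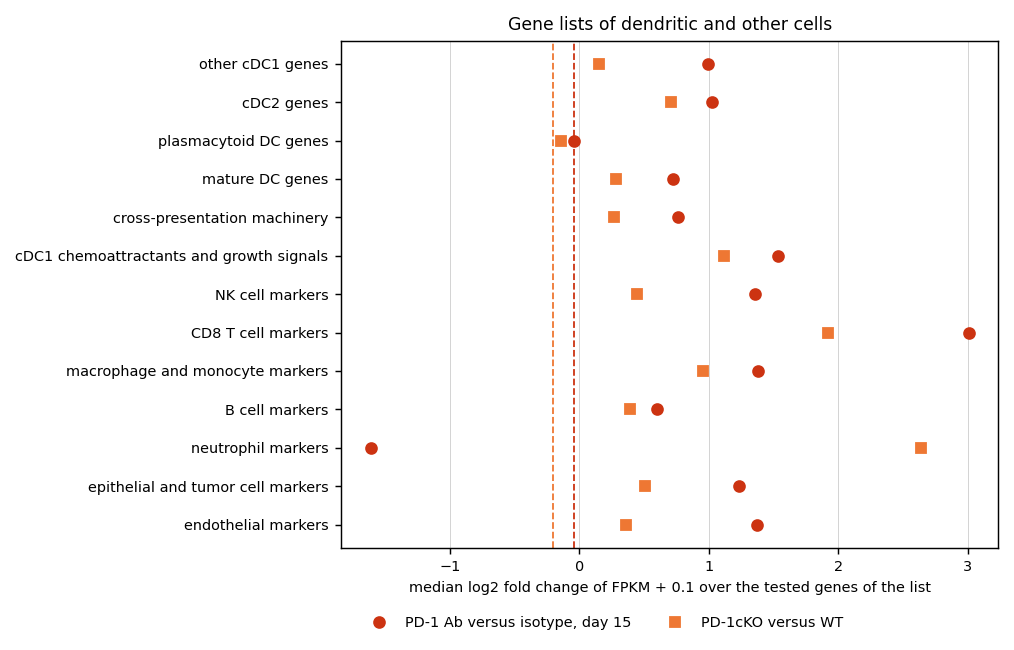
Median log2 fold change of FPKM + 0.1 (x axis) over the tested genes of 13 lists (y axis) at day 15 of PD-1 Ab treatment (circles) and in PD-1cKO against WT (squares); dashed lines are the medians of all genes tested, -0.04 and -0.20. The other cDC1 genes lay at 0.99 and 0.15, while CD8 T cell markers lay furthest to the right at day 15; the neutrophil values rest on 3 and 5 tested genes.

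Deletion of Pdcd1 was compared with WT under tamoxifen. Irf8 rose 2.09-fold in the PD-1cKO tumors, Batf3 and Flt3l were higher by under 2-fold, Xcl1 was lower without meeting the threshold, and Xcr1 had means of 0.327 FPKM in WT and 0.299 FPKM in PD-1cKO. Clec9a, Flt3, Cd24a and Zbtb46 were not called.

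Irf8 ran from 23.1 to 33.5 FPKM with a median of 24.4 in the WT tumors and from 33.8 to 83.3 FPKM with a median of 53.5 in the PD-1cKO tumors. All 10 PD-1cKO tumors lay above every WT tumor, which held for 0.643% of the 15075 genes tested in that direction. The change was 1.06 (SE 0.14, limma adjusted p = 0.000414). Irf8 was the 1 member called of 8 tested, where 4.2% of genes were called higher, 3.87% lower and 8.07% in either direction. With samples scaled by the median of ratios the calls over all genes split into 922 higher and 335 lower, against 633 and 584 here. Without PD-1cKO replicate 8 the change was 0.99 (adjusted p = 0.000652), just under the 2-fold limit.

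Because the groups were split unevenly over the runs of sample identifiers, values are given within runs too. In the second run the 1 PD-1cKO tumor had 83.3 FPKM of Irf8 against 23.1 to 33.5 FPKM in 9 WT tumors, and in the third 2 PD-1cKO tumors had 46.03 and 39.6 FPKM against 24.5 FPKM in 1 WT tumor. With the run as a term in the fit the Irf8 change was 1.31 (SE 0.24, adjusted p = 0.0254), and neither it nor any other gene was called.

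Batf3 ran from 1.86 to 4.37 FPKM (median 3.59) in the WT tumors and from 3.67 to 10.6 FPKM (median 6.48) in the PD-1cKO tumors, with 8 of 10 above every WT tumor. The difference of 0.81 (SE 0.20, limma adjusted p = 0.00395) passed the p threshold, as did 21.3% of genes, but not the 2-fold limit. Over the alternative settings, the run as a term among them, the difference ran from 0.68 to 1.03. The limma adjusted p ran from 0.0017 to 0.0340, so that the p threshold was not passed in all of them. In the second run the PD-1cKO tumor had 8.75 FPKM against at most 4.37 FPKM, and in the third the values were 4.04 and 4.55 FPKM against 2.73 FPKM.

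Flt3l ran from 1.99 to 5.08 FPKM (median 2.69) in WT and from 1.96 to 9.86 FPKM (median 5.79) in PD-1cKO, a difference of 0.80 (SE 0.24, limma adjusted p = 0.0118) with 6 of 10 tumors above every WT tumor and 1 below. Flt3 ran from 0.493 to 1.14 FPKM (median 0.827) and from 0.661 to 2.21 FPKM (median 0.897), a difference of 0.31 (95% interval -0.13 to 0.76, adjusted p = 0.233). With the run as a term these were 1.34 for Flt3l (adjusted p = 0.0308) and 0.68 for Flt3 (adjusted p = 0.184).

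Clec9a ran from 0.276 to 2.19 FPKM (median 0.706) in WT and from 0.528 to 3.97 FPKM (median 1.26) in PD-1cKO. The difference was 0.80 (SE 0.34, limma adjusted p = 0.0584), with 3 of 10 above every WT tumor, and 1.59 (SE 0.59, adjusted p = 0.0532) with the run as a term. In the second run the PD-1cKO tumor had 3.97 FPKM against 0.276 to 2.19 FPKM, and in the third 2.58 and 0.528 FPKM stood against 0.747 FPKM. Clec1b, the gene with shared exon bases, was 0.0962 to 1.45 FPKM in WT and 0.875 to 13.3 FPKM in PD-1cKO, and its part in the Clec9a value was not tested.

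Xcr1 ran from 0.1002 to 0.840 FPKM (median 0.275) in WT and from 0 to 0.609 FPKM (median 0.284) in PD-1cKO, below the filter in both. Its mean log2 value differed by -0.20 (permutation test with 100000 resamples, two-sided, unadjusted p = 0.578). The median over all genes tested in this comparison was -0.20 as well. After median-of-ratios scaling the Xcr1 means were 0.347 FPKM in WT and 0.382 FPKM in PD-1cKO. The ratio of Xcr1 to Clec9a had a median of 0.299 in WT and 0.173 in PD-1cKO, and the part of tumor cells in it was not tested.

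Xcl1 ran from 0.342 to 2.36 FPKM (median 0.751) in WT and from 0 to 1.23 FPKM (median 0.357) in PD-1cKO, with 5 of 10 PD-1cKO tumors below every WT tumor. The difference was -1.23 (SE 0.37, limma adjusted p = 0.0127). Xcl1 passed the filter through the WT group alone (means 1.00 FPKM in WT and 0.410 FPKM in PD-1cKO), so that it had to be lower in PD-1cKO to be tested. It passed the threshold when WT replicate 8 (-1.36, adjusted p = 0.00966) or PD-1cKO replicate 8 (-1.42, adjusted p = 0.00582) was left out and when all 8 groups shared a fit (adjusted p = 0.00240), and it was -0.42 (adjusted p = 0.638) with the run as a term. Within the second run the PD-1cKO tumor had 1.23 FPKM, inside the WT range of 0.342 to 2.36 FPKM, and within the third 0.121 and 0.272 FPKM stood against 0.727 FPKM.

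Cd8a rose over the same tumors, from 3.87 ± 2.81 to 13.8 ± 5.48 FPKM (SD, n = 10 each; log2 change 1.89, limma adjusted p = 0.000423). The ratio of Xcl1 to Cd8a ran from 0.0627 to 0.610 in WT, with a median of 0.267, and from 0 to 0.0494 in PD-1cKO, with a median of 0.0294, so that the groups did not overlap. A rise of Cd8a alone lowers this ratio, and the ratio was not tested. Against Ncr1, which encodes the NK cell receptor NKp46, the ratio of Xcl1 ran from 0.834 to 6.33 in WT, with a median of 2.19, and from 0 to 4.20 in the 9 PD-1cKO tumors with Ncr1 above 0, with a median of 0.874, so that these overlapped.

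Cd24a had a mean of 9.61 ± 2.71 FPKM in WT and 11.4 ± 4.85 FPKM in PD-1cKO (log2 difference 0.17, 95% interval -0.36 to 0.71). Zbtb46 had means of 6.13 ± 0.841 and 5.60 ± 1.18 FPKM (SD, n = 10 each; log2 difference -0.14, 95% interval -0.41 to 0.12). Scaling by the median of ratios, which moved the median of all genes from -0.20 to -0.04, took Zbtb46 to 0.01 and Irf8 to 1.22.

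**Figure D4:**
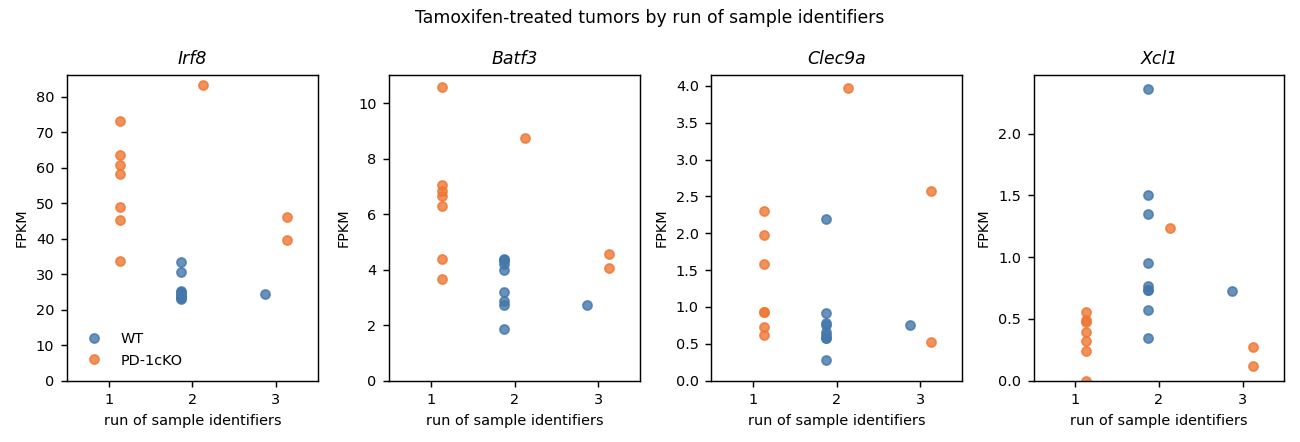
FPKM (y axis, linear) of Irf8, Batf3, Clec9a and Xcl1 in the tamoxifen-treated WT and PD-1cKO tumors by run of sample identifiers (x axis); each point is 1 tumor. Irf8 and Batf3 of the PD-1cKO tumors lay above the WT tumors in the runs that held both, while Xcl1 of the PD-1cKO tumor in the second run (1.23 FPKM) lay inside the WT range.

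In the lists, 1 of 10 other cDC1 genes tested was called higher in PD-1cKO, Id2, a transcription regulator shared with NK and T cells (10.4 ± 4.24 to 25.3 ± 13.1 FPKM, log2 change 1.20, adjusted p = 0.00263), and the list's median was 0.15 against -0.20 over all genes. Tlr11 had the next highest value (0.82, adjusted p = 0.0440) and Ly75 the lowest (-0.51, adjusted p = 0.0675). Here Tlr11 was tested through the PD-1cKO group alone. The cDC2 list had 3 of 8 called higher and a median of 0.70, led by Clec10a (1.37, adjusted p = 0.00223) and Sirpa, an inhibitory receptor of cDC2 and macrophages (1.35, adjusted p = 0.00069). Chemoattractants and growth signals had 6 of 9 called higher and a median of 1.12. They included Ptger2, a prostaglandin E2 receptor (0.518 ± 0.256 to 1.81 ± 0.995 FPKM, log2 change 1.56, adjusted p = 0.000812), and Ccl5 (1.40, adjusted p = 0.00252), with Ptgs2 the lowest (-0.85, adjusted p = 0.0813). Cross-presentation machinery had 2 of 10, Rac2 (1.11, adjusted p = 0.00158) and Syk (1.08, adjusted p = 0.00133), and Sec22b was again the lowest at -0.53 (adjusted p = 0.00661). Plasmacytoid and mature dendritic cell genes had no call among 7 and 8 tested.

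Markers of other cells moved here as well. All 6 CD8 T cell markers were called higher (sum 7.77 to 36.5 FPKM in WT, 21.4 to 93.0 FPKM in PD-1cKO). Gzmk (2.62) and Cd8b1 (2.07) had the highest log2 changes and Cd3d (1.22) the lowest. Called higher as well were 2 of 7 macrophage and monocyte markers (459 to 858 FPKM, 675 to 2153 FPKM), 1 of 6 NK cell markers tested (7.42 to 20.7 FPKM, 15.3 to 41.9 FPKM) and 3 of 5 neutrophil markers tested (2.72 to 12.4 FPKM, 4.94 to 384 FPKM). Cd68 (1.32) led the macrophage list and Ccr2 (-0.06) was its lowest, Prf1 (1.73) led the NK list and Klrb1c (-0.14, adjusted p = 0.656) was its lowest, and Ngp (2.98) and Camp (2.83) led the neutrophil list. B cell, epithelial and endothelial markers had no call. None of these markers was at 0 throughout either group, and their part in the member values was not tested.

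The antibody effect of day 15 and the PD-1cKO effect were set against each other in 1 fit of the 4 groups, which share no control. No member was called, beside 0.0914% of the 16404 genes tested. For Xcr1 the antibody effect exceeded the PD-1cKO effect by 2.18 (SE 0.55, 95% interval 1.06 to 3.30, limma adjusted p = 0.0542). With 1 FPKM added the difference of 1.22 was called (adjusted p = 0.000867). Xcr1 entered this fit through the antibody-study groups alone, with means of 0.327 FPKM in WT and 0.299 FPKM in PD-1cKO. In those tumors the added 1 FPKM exceeded the value itself. With 0.1 FPKM added, the differences were 1.91 for Xcl1 (95% interval 0.61 to 3.21, adjusted p = 0.164) and 1.01 for Flt3 (95% interval 0.21 to 1.80, adjusted p = 0.224). They were 0.92 for Clec9a (95% interval -0.19 to 2.02, adjusted p = 0.385) and 0.52 for Irf8 (95% interval 0.04 to 1.00, adjusted p = 0.280). Batf3 (0.18) and Flt3l (0.04) lay close to 0, with intervals of -0.52 to 0.89 and -0.73 to 0.80.

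The order of mean levels is given for the cultured, baseline and antibody-study groups. Irf8, Batf3, Clec9a and Xcr1 had the same 2 groups at the top, PD-1 Ab at day 15 and then PD-1 Ab at day 11. The means of these groups were 62.0 and 34.9 FPKM for Irf8, 7.42 and 3.93 FPKM for Batf3, 3.53 and 2.28 FPKM for Clec9a, and 2.90 and 1.60 FPKM for Xcr1. The ranges of these 2 groups overlapped for Irf8, Clec9a and Xcr1 but not for Batf3. Below them the neighbouring tumor groups overlapped, except that Irf8 after PD-1 Ab at day 11 lay above the isotype control tumors of day 15. For Xcl1 the isotype control tumors of day 11 were highest at 2.32 ± 0.931 FPKM (SD, n = 5), and the ranges of all the tumor groups next to each other in its order overlapped. Whether the PD-1cKO tumors stood above or below PD-1 Ab at day 15 depended, for Irf8, Batf3, Flt3 and Flt3l, on the scaling, an alternative chosen after seeing the data. Neither order is read as a result, because of the short noncoding RNA share given above. On FPKM the means were 55.2 against 62.0 for Irf8, 6.28 against 7.42 for Batf3, 1.11 against 1.14 for Flt3 and 5.65 against 7.16 for Flt3l, and after median-of-ratios scaling 72.2 against 52.9, 8.25 against 6.32, 1.48 against 0.98 and 7.48 against 6.11.

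Over the 43 tumors, after each group's mean was taken out, the members were loosely tied. The largest correlation between members was that of Batf3 and Irf8 (Pearson's r = 0.75), followed by Irf8 and Flt3l (0.71); Clec9a and Xcr1 had 0.51, and Zbtb46 had between 0.02 and 0.15 with the others. Without the mostly mitochondrial control these were 0.67 for Batf3 and Irf8, 0.59 for Irf8 and Flt3l and 0.52 for Clec9a and Xcr1, and Zbtb46 had between -0.30 and 0.01 with the others. Among the 13228 genes that averaged 1 FPKM or more over the tumors, the 3 most alike were Fpr2, Treml4 and Ly86 for Xcr1 (0.81, 0.80 and 0.79), Ms4a4b, Themis and Klrd1 for Clec9a (0.81, 0.80 and 0.80), and Icam1, Il10ra and Laptm5 for Irf8 (0.96, 0.94 and 0.94). For Batf3 they were Itgb7, Tmem51 and Tbx21 (0.85, 0.83 and 0.83), for Xcl1 Ctsw, Hint3 and Ltb (0.73, 0.70 and 0.67), and for Flt3 Adgrd1, Adam23 and Gimap5 (0.82, 0.81 and 0.79). The leading genes were Asap3 for Flt3l (0.81), Il1rn for Cd24a (0.73) and Tfcp2 for Zbtb46 (0.79). These are descriptions over tumors that share a table and its normalization, and without that control the first-ranked gene stayed the same for 6 of the 9.

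Within the tamoxifen groups 6 pairs of genes were correlated over the 10 tumors of each group, 12 tests in all. Flt3l and Flt3 in the PD-1cKO tumors had Pearson's r = 0.75 (permutation p = 0.00444, adjusted 0.0533) and Spearman's rho = 0.84 (permutation p = 0.00394, adjusted 0.0473), with r = 0.77 when the 2 tumors farthest from the median of Flt3l were left out and 0.72 over the 7 tumors of the first identifier run. In the WT tumors the same pair had r = 0.32 (permutation p = 0.365, adjusted 0.625) and rho = 0.33 (permutation p = 0.347, adjusted 0.596). Xcl1 and Cd8a had r = 0.77 in the PD-1cKO tumors (permutation p = 0.0131, adjusted 0.0788) and rho = 0.59 (permutation p = 0.0787, adjusted 0.236), with r = 0.145 when the 2 tumors farthest from the median of Xcl1 were left out, so that over the 10 tumors the relation rests on them. Over the 7 tumors of the first run the pair had r = 0.88 and rho = 0.71. In the WT tumors Xcl1 and Cd8a had r = -0.09 (permutation p = 0.85, adjusted 0.85) and rho = -0.19 (permutation p = 0.603, adjusted 0.81). Clec9a and Xcr1 had r = 0.66 in PD-1cKO (permutation p = 0.0315, adjusted 0.126), rho = 0.685 (permutation p = 0.0349, adjusted 0.209), r = 0.45 without 2 tumors and 0.30 within the first run. In WT the pair had r = -0.19 (permutation p = 0.607, adjusted 0.728) and rho = -0.02 (permutation p = 0.973, adjusted 0.973). Xcl1 and Xcr1 had r = 0.66 in PD-1cKO (permutation p = 0.0513, adjusted 0.154), 0.03 without 2 tumors and 0.92 within the first run. In WT they had r = -0.12 (permutation p = 0.749, adjusted 0.817). Batf3 and Clec9a had r = 0.54 in PD-1cKO and 0.58 in WT (permutation, adjusted p = 0.219 and 0.161). For Xcl1 and Ncr1 r was 0.24 and 0.27 (permutation, adjusted p = 0.659 in both groups). No Pearson correlation passed an adjusted p of 0.05 among the 12.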

How the data were processed

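RNA from cultured MC-38 cells and whole tumors was sequenced by the authors from stranded, ribosome-depleted libraries in paired 50-base reads. They aligned reads with OSA in Array Studio to mouse build B38 with Ensembl R86 and at most 2 mismatches. The deposited values are FPKM per gene; counts are not used here and the depth behind each value is unknown. The identifiers of 99.1% of rows matched a gene name. No columns of other comparisons were used. Labels do not say that each tumor came from another mouse, so p-values measure the spread between these samples. Samples were grouped by their labels.

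Values were tested as log2(FPKM + 0.1) with limma 3.58.1 (R 4.3.3; trend in eBayes, two-sided) in the groups compared, keeping genes whose mean reached 0.5 FPKM in one or both groups. P-values were Benjamini-Hochberg adjusted over all genes tested, and a gene was called at adjusted p under 0.01 and at least 2-fold. Members under the filter had a two-sided permutation test of mean log2 values (scipy 1.17.1). The fit was tested on simulated data, where it recovered 95% of 200 genes changed 4-fold in the day 15 comparison and 64% in the day 11 comparison. Named list genes are the 2 highest and the lowest of each list at day 15 and in PD-1cKO, beside genes named after their values were seen (Syk and Cd40). Promoters are from RefSeq (GRCm38.p6), present for 8 of 9 members. Alternatives were 1 FPKM added, no filter, median-of-ratios scaling, all 8 groups in 1 fit, a replicate block, identifier runs as a covariate, and leaving out each replicate. The members and lists were chosen with earlier results of these data known.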

Additional observations from a re-analysis of the deposited data

Results flagged for a closer look

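In each group of 5 or 10 tumors the gap between the highest or lowest value and its neighbour was compared with the group's range (Dixon's 95% limit), over 54 gene and group pairs. Chance gives about 1 in 20 pairs, and 4 were found. Xcr1 was 1.70 FPKM in isotype control replicate 4 of day 15, above the other controls of at most 0.630 FPKM. The same tumor had the highest Clec9a of its group, 1.96 FPKM. Clec9a was 2.19 FPKM in WT replicate 3 under tamoxifen, where the next tumor had 0.920 FPKM. Xcr1 was 0.840 FPKM in WT replicate 9 under tamoxifen, with the next at 0.441 FPKM. Xcl1 was 1.23 FPKM in PD-1cKO replicate 8, with the next at 0.552 FPKM. That tumor also had the highest Irf8, Clec9a, Xcr1, Flt3 and Flt3l of its group.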

How the results depend on the processing

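Of 342 member differences recomputed under the other settings, 322 kept their direction and their side of the threshold, and of 778 recomputed with 1 replicate left out, 739. Depth is unknown and several members lie below 1 FPKM, where the added FPKM sets the fold. Replicate numbers did not pair the samples: no comparison had every same-numbered pair correlated above 0.1. With a replicate block, 1 member (Irf8) of 316 genes was called at day 15, no gene in day 15 isotype control against baseline, 1 gene in the antibody minus PD-1cKO difference, and Cd24a turned to 0.048 against culture; no other member count moved by over 1.5 times. The cause was not tested.

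Without the filter 450 genes were called at day 15, 57 against baseline, 1 for day 15 minus day 11 and 28 for antibody minus PD-1cKO. With 1 FPKM added 617 were called in PD-1cKO, 135 against baseline, and 25 for antibody minus PD-1cKO, of them 1 member, Xcr1. With all 8 groups in 1 fit 16 were called at day 11, 172 against baseline and 2 for antibody minus PD-1cKO, and 2 members in PD-1cKO (Irf8 and Xcl1). With identifier runs no gene and 0 members were called in PD-1cKO, and Cd24a was -0.49. Median-of-ratios scaling gave 9 genes for antibody minus PD-1cKO and 2 of 12 correlations past the threshold (Flt3l with Flt3, r = 0.81; Xcl1 with Cd8a, r = 0.84, both adjusted p = 0.0259), split the PD-1cKO calls into 922 higher and 335 lower against 633 and 584, and turned Zbtb46 at day 11 (-0.23), in PD-1cKO (0.014), in baseline against culture (0.0082), for day 15 minus day 11 (0.23) and for antibody minus PD-1cKO (-0.085), Xcl1 at day 11 (-0.23), Batf3 against baseline (0.040) and for antibody minus PD-1cKO (-0.037), and Flt3l there (-0.18).

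Leaving out 1 replicate, members called ranged from 2 to 5 at day 15 (5 without PD-1 Ab replicate 5) and from 1 to 2 in PD-1cKO (2 without WT replicate 8). All genes called ranged from 0 to 7 at day 11 (7 without isotype control replicate 1), from 375 to 1534 at day 15 (375 to 494 without isotype control 1 or 5 or PD-1 Ab 1, 2 or 3, and 1534 without PD-1 Ab 5), from 743 to 1871 in PD-1cKO (743 without replicate 4, 786 without 8, 1871 without 9), from 13 to 166 against baseline (every sample but isotype control 4 moved it by over 1.5 times) and from 2 to 55 for antibody minus PD-1cKO (2 to 7 without isotype control 1 or 5 or PD-1 Ab 1, 2 or 3, 27 without isotype control 4 and 55 without PD-1 Ab 5). Members that changed sign ranged from -0.15 to 0.15 (Zbtb46) and -0.16 to 0.19 (Xcl1) at day 11, -0.089 to 0.043 (Zbtb46) and -0.027 to 0.16 (Cd24a) at day 15, -0.15 to 0.066 (Zbtb46) and -0.0043 to 0.25 (Cd24a) in baseline against culture, -0.32 to 0.20 (Batf3), -0.13 to 0.37 (Irf8) and -0.70 to 0.29 (Clec9a) against baseline, -0.17 to 0.13 (Zbtb46) for day 15 minus day 11 and -0.095 to 0.15 (Flt3l) for antibody minus PD-1cKO.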
